A study of Mus musculus with 14 samples.

Results

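The genes examined here are the 4 neuregulin genes (Nrg1, Nrg2, Nrg3 and Nrg4) and the 4 genes of the ErbB receptor family (Egfr, Erbb2, Erbb3 and Erbb4), 8 of 21887 protein-coding genes in the annotation. A peak was assigned to a gene when it overlapped the gene body or the 5 kb on either side by at least 1 bp. The family was selected on peak positions in these same lists, in particular a peak in Nrg3 after damage and the number of peaks for the gene's length. Its peak numbers are therefore given as a description. In all, 68 of 39832 deposited peaks lay in these 8 windows. Of these, 66 came from lists of PBS-treated mice and 2 from lists of paraquat-treated mice.

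The peaks came from chromatin immunoprecipitation and sequencing of Sca1+CD45- cardiac cells of C57BL/6 mice between 6 and 8 weeks old. One antibody was directed against BMI1, a subunit of Polycomb repressive complex 1, and the other against H2AK119ub, histone H2A with a single ubiquitin, which complexes of that family attach. The Damage groups received 20 mg/kg of intraperitoneal paraquat, a redox-cycling herbicide, once, and the Homeostasis groups received the PBS vehicle, with 3 libraries for each treatment and antibody. Cells were enriched by magnetic sorting and so may hold several cell types, and the labels do not say whether replicates came from separate mice. P-values therefore reflect the spread between these libraries alone, and that spread may be technical. The labels also describe growth in medium that contains EGF, itself a ligand of the ErbB family, at 3% oxygen, without stating whether the cells used for immunoprecipitation were grown in it. Homeostasis lists held 2000 to 13487 peaks and Damage lists 19 to 68. Read depth is unknown, so a list length cannot be scaled for it. Ly6a, which encodes the Sca1 antigen, and Ptprc, which encodes CD45, had no peak in any list. Peak lists do not measure expression, so the cell label could not be checked against its markers.

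Neuregulins are growth factors with an EGF-like domain that bind ErbB3 or ErbB4 on neighbouring cells. ErbB4 and EGFR are active kinases, ErbB3 has little kinase activity of its own, and ErbB2 has no known ligand and acts as the preferred partner of the others. In the heart, neuregulin-1 made by endothelial cells signals to ErbB4 and ErbB2 on cardiomyocytes, and this exchange is needed for the trabeculae of the embryonic ventricle. Polycomb repressive complex 1 is best known from CG-rich gene starts, where its mark accompanies repression.

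The gene starts are shown first, because Polycomb binding is most often described there and because no peak of any list lay within 1 kb of a start in this family where the start is annotated. RefSeq promoter windows of GRCm38.p6, 300 bases long with 250 before the start, were matched for 5 of the 8 genes (Nrg3, Nrg4, Egfr, Erbb2 and Erbb4), and Nrg1, Nrg2 and Erbb3 had no entry. Below are the bases of 3 windows that lie outside the annotated gene, 5′ to 3′ on the strand of the gene, with each CG dinucleotide in capitals. They are Egfr (chr11:16751953-16752202, plus strand), whose only site lay 58.9 kb away, Erbb2 (chr11:98412234-98412483, plus strand), without a peak in any list, and Nrg4 (chr9:55283655-55283875, minus strand), whose nearest site lay 33.6 kb away.
Egfr: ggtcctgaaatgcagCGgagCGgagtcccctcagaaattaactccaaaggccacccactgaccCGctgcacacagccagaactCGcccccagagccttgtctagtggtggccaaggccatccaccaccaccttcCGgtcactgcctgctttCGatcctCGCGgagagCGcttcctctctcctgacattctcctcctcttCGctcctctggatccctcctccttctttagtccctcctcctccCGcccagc
Erbb2: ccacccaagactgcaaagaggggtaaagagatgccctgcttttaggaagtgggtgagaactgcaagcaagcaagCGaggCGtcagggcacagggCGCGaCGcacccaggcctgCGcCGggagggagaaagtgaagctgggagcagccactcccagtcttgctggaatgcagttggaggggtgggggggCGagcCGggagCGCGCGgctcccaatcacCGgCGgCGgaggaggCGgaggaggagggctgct
Nrg4: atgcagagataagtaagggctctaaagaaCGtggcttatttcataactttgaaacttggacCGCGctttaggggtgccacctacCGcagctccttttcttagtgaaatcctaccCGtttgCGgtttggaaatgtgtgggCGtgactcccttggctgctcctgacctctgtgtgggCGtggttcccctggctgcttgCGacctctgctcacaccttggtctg
The printed bases hold 11 CG dinucleotides for Egfr, 16 for Erbb2 and 9 for Nrg4. CG reads the same on both strands, and 94.6% of 32851 promoter windows of the same length held at least 1, with a median of 7. The full windows held 15 CG for Egfr, 21 for Erbb2, 13 for Nrg4, 17 for Erbb4 and 36 for Nrg3. Windows with as many CG or more made up 34.6%, 24.8%, 37.9%, 31.4% and 6.23% of all windows, in the same order. Peaks at gene starts were rare throughout: 28 of the 32851 windows (0.0852%) held a Homeostasis peak, and 412 (1.25%) had one within 1 kb of the window.

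Peak number was followed gene by gene, ligands first. Nrg3 encodes a neuregulin that binds ErbB4 and is known mainly from the nervous system. It is annotated on chromosome 14 from 38365102 to 39473235, minus strand, a length of 1108 kb. BMI1 replicates 1, 2 and 3 at homeostasis had 3, 9 and 2 peaks in Nrg3, and H2AK119ub replicates 1, 2 and 3 had 2, 11 and 5. All 6 Homeostasis lists thus had a peak, with high numbers in replicate 2 of both antibodies, the longest list of each (7513 and 13487 peaks). The means were 4.67 ± 3.79 (SD, n = 3) for BMI1 and 6.0 ± 4.58 (n = 3) for H2AK119ub. These means, like those of peak number for Nrg1 and Erbb4 below, are not scaled for list length. Among the Damage lists, H2AK119ub replicate 3 had 1 peak and the other 5 had none, so within each antibody every Homeostasis list lay above every Damage list. The same held for 2.54% of all protein-coding genes and 13.1% of those in the longest of 10 length classes.

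Nrg1 encodes neuregulin-1, the ligand with the established role in the heart, on chromosome 8 from 31807452 to 32891609 (1084 kb). BMI1 replicates 1, 2 and 3 had 1, 2 and 2 peaks there and H2AK119ub replicates 1, 2 and 3 had 1, 4 and 5, all at homeostasis. The means were 1.67 ± 0.577 and 3.33 ± 2.08 (SD, n = 3). No Damage list had a peak in Nrg1, where 0.0508 were expected over all Damage lists together. The treatments thus did not overlap for either antibody, as for 2.54% of all protein-coding genes and 13.1% of the longest class.

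The shorter ligand genes had few peaks. Nrg2 (chromosome 18, 36014581 to 36197532, 183 kb), a neuregulin of the nervous system, had 1 peak in Homeostasis BMI1 replicate 2, 1 in H2AK119ub replicate 2 and 1 in H2AK119ub replicate 3. These 3 peaks formed 1 site (36201967 to 36202074) outside the gene body, 4435 bp beyond its upper end, and 78.5 kb from the next protein-coding gene, Pura. Nrg4 (chromosome 9, 55220222 to 55283654, 63.4 kb), a ligand of ErbB4 released by brown fat among other tissues, had 2 peaks in Homeostasis H2AK119ub replicate 2 and none in any other list. The sites of Nrg4 lay at 55237109 to 55237209 and 55250017 to 55250117.

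Among the receptor genes, Erbb4 stood alone in having more than 1 site. Erbb4 encodes the receptor of all 4 neuregulins and lies on chromosome 1 from 68031884 to 69108576, minus strand (1077 kb). At homeostasis BMI1 replicates 1, 2 and 3 had 1, 3 and 0 peaks in Erbb4, and H2AK119ub replicates 1, 2 and 3 had 0, 5 and 3. The means were 1.33 ± 1.53 and 2.67 ± 2.52 (SD, n = 3). Damage BMI1 replicate 2 had 1 peak in Erbb4 and the other 5 Damage lists had none, so the BMI1 lists of the treatments overlapped, and those of H2AK119ub met at 0. Egfr, the receptor of EGF (chromosome 11, 16752203 to 16913907, 162 kb), had 1 peak in Homeostasis H2AK119ub replicate 2 and 1 in replicate 3, both at 16811006 to 16811107, and no BMI1 peak. Erbb2 (chromosome 11, 98412484 to 98437716, 25.2 kb) and Erbb3 (chromosome 10, 128567523 to 128589635, 22.1 kb) were without a peak in all 12 lists.

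**Figure D1:**
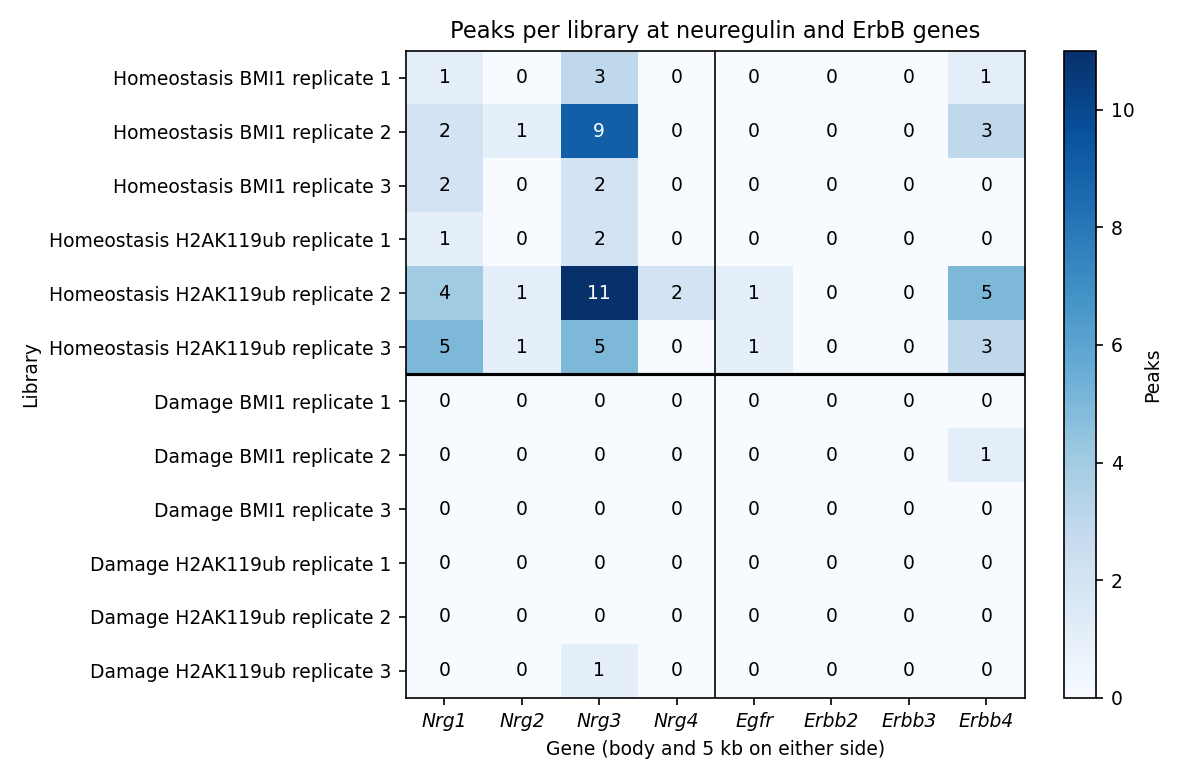
Number of peaks (cell value and shade) in each of the 12 libraries (rows) at each of the 8 genes with 5 kb on either side (columns), with Homeostasis above and Damage below the line. Nrg3 has the highest numbers, up to 11 in Homeostasis H2AK119ub replicate 2, and the Damage rows hold 2 peaks in all.

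In numbers of genes, 3 of 8 members (Nrg1, Nrg3 and Erbb4) had a BMI1 peak in 2 or more of the 3 Homeostasis libraries, beside 7.34% of all protein-coding genes and 33.7% of those in the longest of 10 length classes. For H2AK119ub it was 5 of 8 (the same 3 with Nrg2 and Egfr), beside 9.63% and 41.8%. Of the 8 members, 5 are in that longest class, which starts at 109 kb. Taking each member's own length class, 1.88 members would be called for BMI1 and 2.37 for H2AK119ub at the class shares. The H2AK119ub count rested on replicates 2 and 3, since it was 2 without either of them. With the gene body alone it was 4, without Nrg2, whose only site lies outside the gene. Nrg1 and Nrg3 had a peak in all 6 Homeostasis lists, as did 2.55% of protein-coding genes and 13.2% of the longest class. For both antibodies together, a peak in any of the 6 Homeostasis lists was present for 6 members, beside 19.3% of all genes and 66.2% of the longest class.

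The numbers were then set against gene length. The expected number for a window was the number of peaks of the list on that chromosome, times the share of the chromosome that the window covers. Nrg3, where 2.3 BMI1 and 3.2 H2AK119ub peaks per library were expected on average, held 1.83 ± 0.879 and 2.05 ± 0.492 times as many (SD, n = 3), and it lay above 1 in every Homeostasis list (lowest 1.25). The BMI1 ratio of Nrg3 was 1.33 without BMI1 replicate 2. Nrg1 held 0.694 ± 0.285 times the expected number for BMI1 and 1.07 ± 0.415 times for H2AK119ub. Erbb4 held 0.525 ± 0.521 and 0.624 ± 0.541 times the expected number, with its highest list at 1.04. Its BMI1 ratio was 0.268 without BMI1 replicate 2. These 3 genes are nearly equal in length, yet over the 6 Homeostasis lists together Nrg3 had 32 peaks where 16.5 were expected, Nrg1 15 where 17.3 were expected and Erbb4 12 where 15.8 were expected. Nrg3 had more peaks than Erbb4 in 6 of 6 Homeostasis lists and more than Nrg1 in 4, with equal numbers in the other two.

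For the short genes the expected numbers were small. Over the 6 Homeostasis lists Nrg2 had 3 peaks (3.01 expected), Egfr 2 (2.61 expected) and Nrg4 2 (1.18 expected). A count of 0 for Erbb2 (0.536 expected) and Erbb3 (0.488 expected) does not separate these genes from others of their length. Summed over the family, the ratio to expectation was 0.915 ± 0.412 (SD, n = 3) for BMI1 and 1.2 ± 0.181 for H2AK119ub. The 8 windows together held 24 BMI1 peaks where 24.1 were expected, and 42 H2AK119ub peaks where 33.4 were expected. Nrg3, whose peaks were part of the choice of the family, held 14 of these BMI1 peaks (6.9 expected) and 18 of these H2AK119ub peaks (9.61 expected). Both sums therefore lean on Nrg3 and do not describe the other members.

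**Figure D2:**
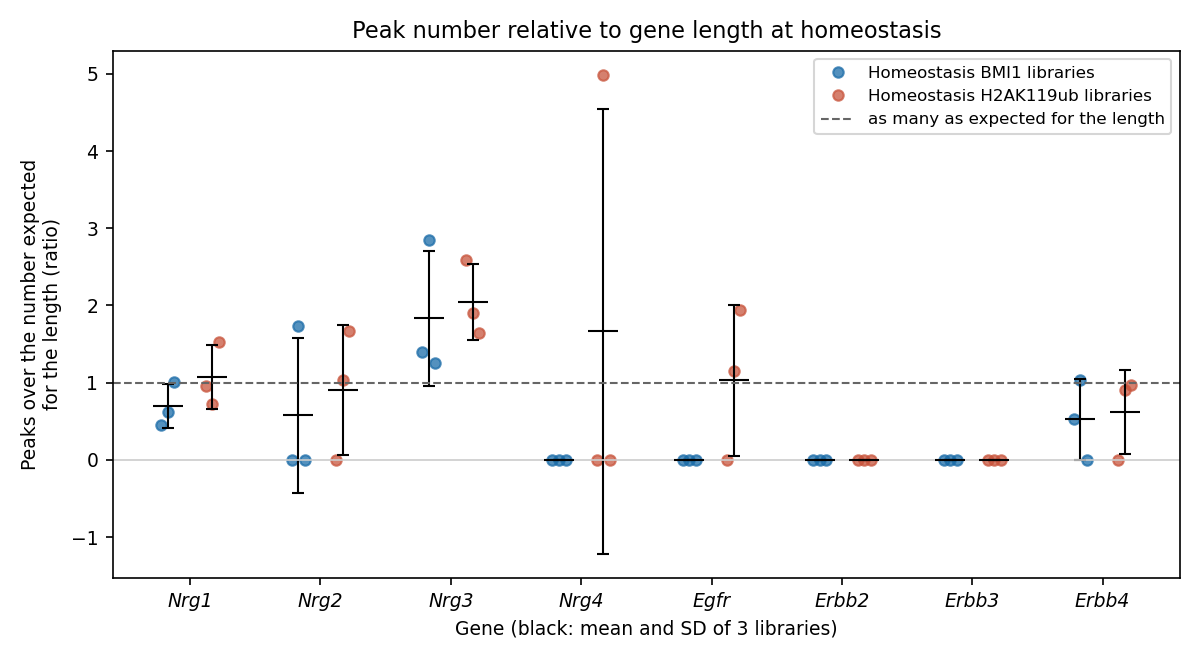
Peaks over the number expected for the length (y axis, ratio) for each gene (x axis), with 1 point per Homeostasis library, blue for BMI1 and red for H2AK119ub, black bars for the mean and SD of 3 libraries, and a dashed line at 1. Nrg3 lies above 1 in all 6 libraries, and the wide bar of Nrg4 comes from 2 peaks in 1 library.

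Genes of like length were then taken for comparison. In the annotation 55 protein-coding genes are between 900 and 1300 kb long, Nrg1, Nrg3 and Erbb4 among them. The median over these 55 genes of summed peaks to summed expectation was 1.15 for BMI1 and 1.03 for H2AK119ub. Nrg3, at 2.03 and 1.87 on that measure, was exceeded by 6 genes for BMI1 and 9 for H2AK119ub. Nrg1 (0.673 and 1.01) was exceeded by 39 and 30 genes, and Erbb4 (0.623 and 0.851) by 41 and 41. Nrg3 thus lay above the middle range of these genes (0.634 to 1.55 for BMI1 and 0.867 to 1.71 for H2AK119ub, quartiles), Nrg1 within it, and Erbb4 just below it.

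**Figure D3:**
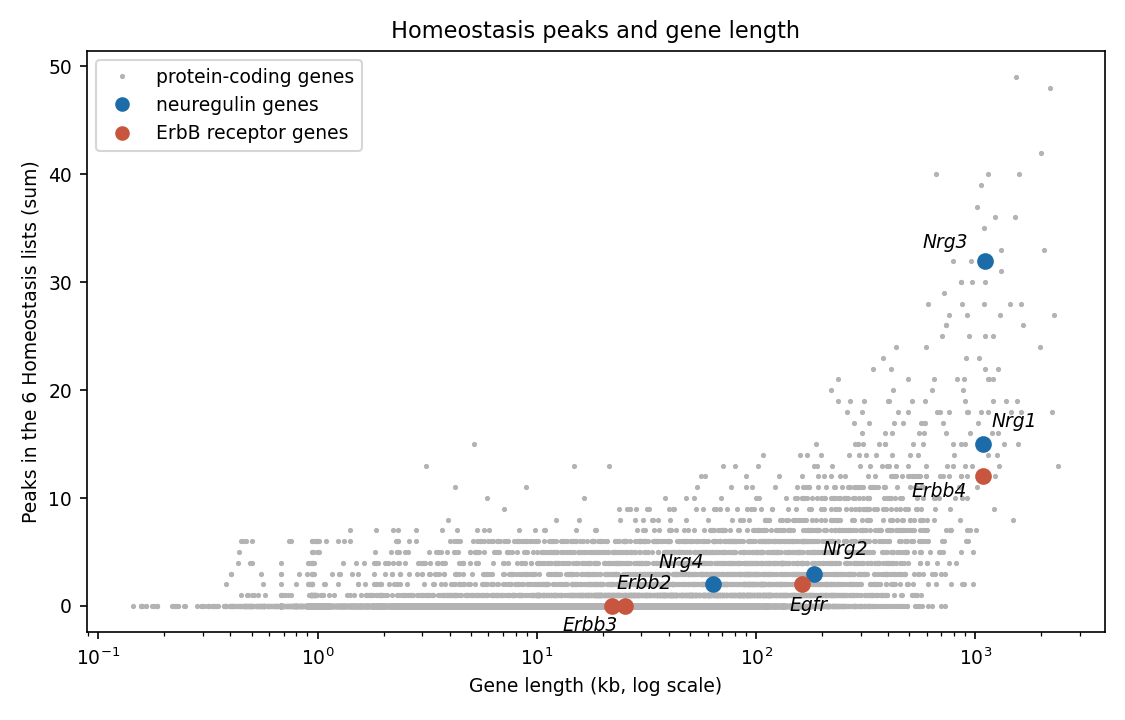
Peaks summed over the 6 Homeostasis lists (y axis) against gene length in kb (x axis, log scale) for all protein-coding genes (grey), neuregulin genes (blue) and ErbB receptor genes (red). Of the 3 long members, Nrg3 lies highest with 32 peaks, and Nrg1 and Erbb4 have 15 and 12.

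The 3 protein-coding genes listed here had peak numbers most like those of Nrg3, by the sum over the 12 lists of absolute differences in peak number. These were Dcc, a netrin receptor of axon guidance (summed difference 6), Frmpd4, a scaffold protein of synapses (7), and Inpp4b, a phosphoinositide phosphatase (7). Dcc had 4, 8 and 4 BMI1 peaks and 2, 12 and 5 H2AK119ub peaks in Homeostasis replicates 1, 2 and 3, and none after damage. Their lengths were 1098 kb for Dcc, 1106 kb for Frmpd4 and 792 kb for Inpp4b. The likeness includes the list lengths, which all genes share.

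Overlapping Homeostasis peaks were next joined into sites, to see how often a position recurred. The 8 windows held 31 Homeostasis sites. Of these, 18 (58.1%) were found in 2 or more of the 6 lists, beside 50% of all 17229 Homeostasis sites, and 14 (45.2%) with both antibodies, beside 43.1%. A further 13 were in 1 list only, 8 of them in H2AK119ub replicate 2, the longest list, and 4 in H2AK119ub replicate 3. Sites seen with H2AK119ub alone numbered 15 of 31, beside 7527 of all 17229. Those with BMI1 alone numbered 2, beside 2269. The family's shares in 2 or more lists and with both antibodies were thus near those of all sites. The count in 2 or more lists was 10 without Homeostasis BMI1 replicate 2 and 9 without Homeostasis H2AK119ub replicate 2.

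There were 3 sites present in all 6 Homeostasis lists (9.68% of 31, beside 7.21% of all sites). In Nrg3 they lay at 38747758 to 38747871 and at 39369035 to 39369141, 725 kb and 104 kb from the annotated start. The first bases of the 6 peaks fell within 13 bp of each other at the former and within 6 bp at the latter. In Nrg1 the site lay at 32779535 to 32779685, where the 6 first bases spread over 50 bp and an annotated long non-coding RNA gene, Gm39155, overlaps. Over all sites found in 6 lists, the median spread was 17 bp. The 3 peaks that Homeostasis H2AK119ub replicate 1, the shortest Homeostasis list, had in the family were at these 3 sites. Of all sites of that list, 62.5% were in all 6. Such a site was present in 469 protein-coding genes (2.14%, and 10.5% of the longest class). A number of 2 or more were present in 34, Nrg3 among them (0.155%, and 1.32% of the longest class). Of the 55 genes of like length, 21 had at least 1 such site and 7 had 2 or more.

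The remaining Nrg3 sites were spread along the gene. Nrg3 had 12 Homeostasis sites, 9 with both antibodies, 3 with H2AK119ub alone and none with BMI1 alone. All 9 peaks of BMI1 replicate 2 were at sites that an H2AK119ub list also held. Sharing of this kind was common throughout: of all 17229 Homeostasis sites, 7433 (43.1%) were found with both antibodies and 2269 with BMI1 alone. A site near the far end (38424631 to 38424732) was in 4 lists, BMI1 replicates 1 and 2 and H2AK119ub replicates 2 and 3, with first bases within 1 bp. Another (39047717 to 39047826) was in BMI1 replicate 2 and H2AK119ub replicates 2 and 3. A site at 38528686 to 38528786 had the same first base in BMI1 replicate 2 and H2AK119ub replicate 3. A site at 39239968 to 39240116, in replicate 2 of both antibodies, overlaps the long non-coding RNA gene Gm20642. Beyond the 5 kb window, 6.9 kb past the start-side end of Nrg3, BMI1 replicate 1 had a peak at 39480137 to 39480237, and H2AK119ub replicates 2 and 3 had one at 39480581 to 39480686.

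**Figure D4:**
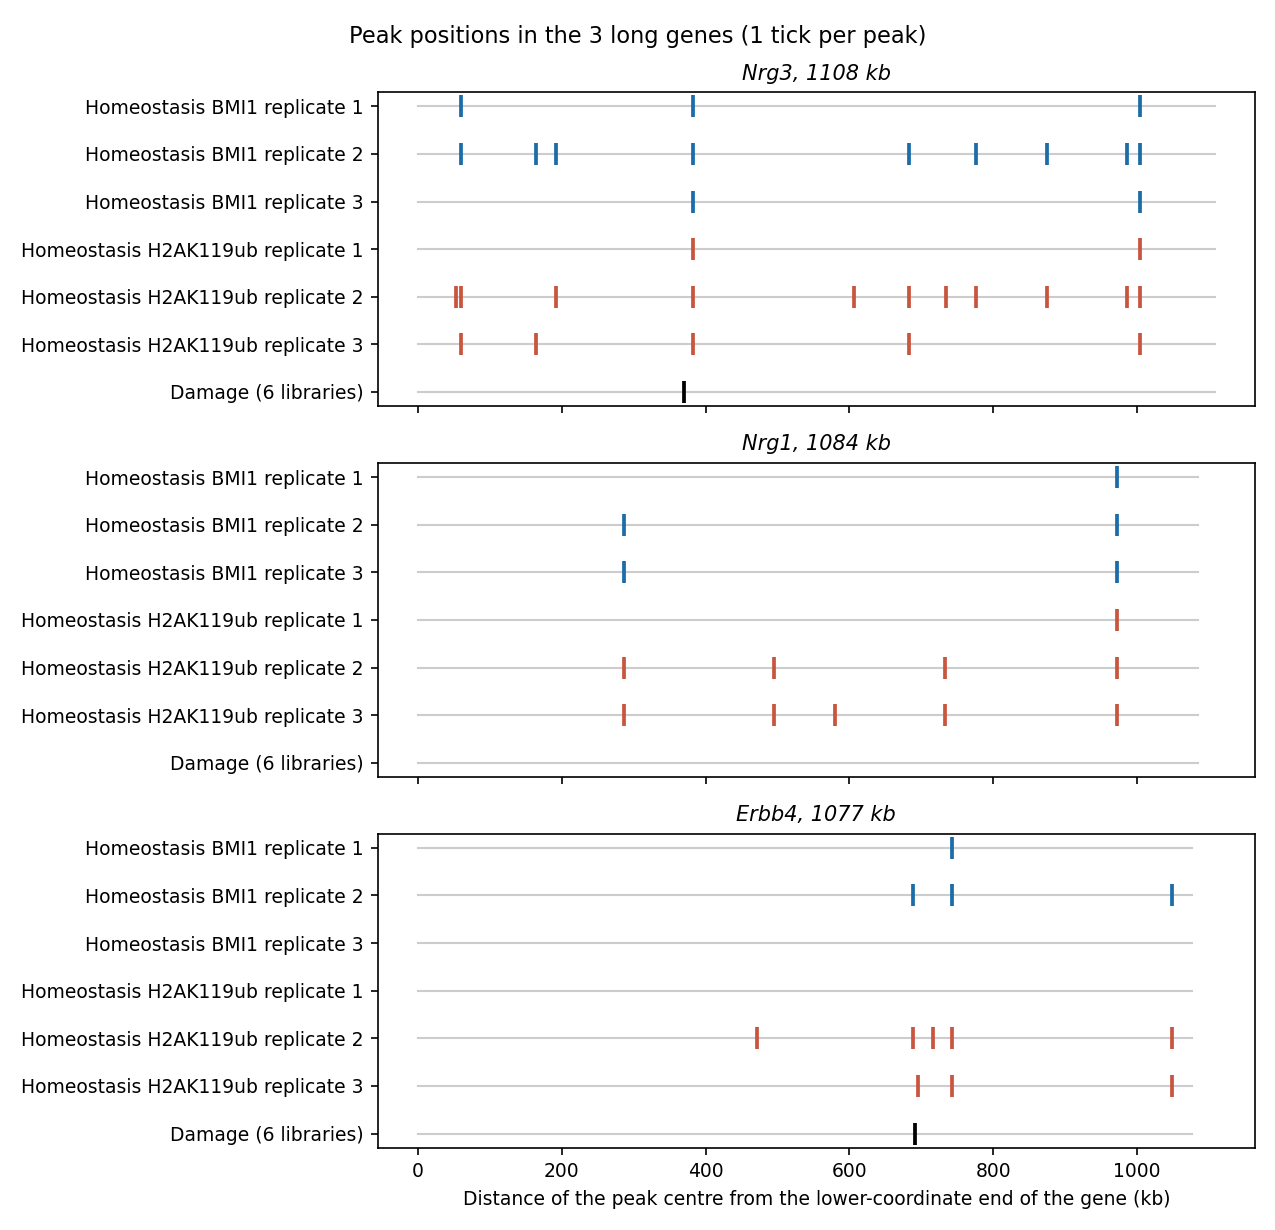
Position of each peak (tick) along Nrg3, Nrg1 and Erbb4, as distance in kb of the peak centre from the lower-coordinate end of the gene (x axis), by Homeostasis library (blue BMI1, red H2AK119ub) and for the 6 Damage libraries together (black). Columns of ticks through all 6 Homeostasis rows mark the 2 such sites of Nrg3 and the 1 of Nrg1, and no Erbb4 column passes through all rows.

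In Nrg1 and Erbb4 fewer sites were found with both antibodies than in Nrg3 (9 of 12), beside 43.1% of all sites. Of the 7 Homeostasis sites of Nrg1, 1 was found with both antibodies, 5 with H2AK119ub alone and 1 with BMI1 alone. The BMI1 site (32094665 to 32094773, replicates 2 and 3) lay 362 bp from an H2AK119ub site (32094196 to 32094303, replicates 2 and 3), so each antibody repeated its own position to within 8 bp there. At 32302219 to 32302350 a peak was in H2AK119ub replicates 2 and 3. Peaks of the same lists near 32540604 and 32540740 were 36 bp apart and did not overlap. Whether the recurrence differs between these genes was not tested.

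Erbb4 had 8 Homeostasis sites, 3 with both antibodies, 4 with H2AK119ub alone and 1 with BMI1 alone, and none in all 6 lists. The most shared, 68774680 to 68774788, was in BMI1 replicate 2 and H2AK119ub replicates 2 and 3, and a BMI1 replicate 1 peak ended 57 bp before it. The nearest to the start, 69080213 to 69080377, lay 27.8 kb from it and was in replicate 2 of both antibodies, with an H2AK119ub replicate 3 peak 56 bp away. All 8 lay within 604 kb of the annotated start. The 472 kb at the far end of Erbb4 held no peak. With peaks within 1 kb joined, Homeostasis and Damage peaks of the family made 29 sites, against 33 with overlap alone, and 18 were in 2 or more lists under both rules. The Egfr site overlaps Egfros, an annotated long non-coding RNA gene. Exons and introns were not told apart, since only gene boundaries were used.

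After damage, 2 of 8 members had a peak in any list, beside 0.283% of all protein-coding genes and 1.6% of the longest class. The Nrg3 peak was part of the reason for choosing the family, so nothing is read from the count. Of the 55 genes of like length, 6 had a Damage peak, Nrg3 and Erbb4 included. The Nrg3 peak, in H2AK119ub replicate 3, lay at 38734956 to 38735056, 12.7 kb from the nearest Homeostasis peak, which belongs to the 6-list site at 38747758. The Erbb4 peak, in BMI1 replicate 2, lay at 68722434 to 68722534, 2.01 kb from the nearest Homeostasis peak. Neither was in a second Damage list, and neither overlapped a Homeostasis peak. Both genes are long: 0.0986 Damage peaks were expected in Nrg3 over the 6 lists and 0.0723 in Erbb4. Across all 217 Damage peaks the median distance to a Homeostasis peak was 56.9 kb, with 51 within 13 kb and 28 within 2.2 kb.

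The treatments were compared per gene over the 12 libraries on the log2(peaks + 1) scale, with treatment permuted within antibody, over 4247 protein-coding genes with a peak in any list. The exact permutation test called 555 genes (13.1%), all at the smallest p that 400 arrangements allow. With Damage lists of 19 to 68 peaks, that call amounts to having a peak in all 6 Homeostasis lists, which 559 genes had. No p is therefore given for a member, and the differences are a description. Nrg1 was higher at homeostasis in 6 of 6 libraries, by 1.68 ± 0.264 (SE) on that scale, and Nrg3 by 2.28 ± 0.424. The difference was 1.1 ± 0.514 for Erbb4, 0.50 ± 0.236 for Nrg2, 0.33 ± 0.167 for Egfr and 0.26 ± 0.264 for Nrg4, where the lists of the treatments met or overlapped. In Nrg1 0.0508 Damage peaks were expected over all 6 lists, so its 0 peaks carry no statement on density. Among all 21887 genes, 2.54% had every Homeostasis list above every Damage list in both antibodies, as Nrg1 and Nrg3 did (13.1% of the longest class).

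The antibodies were compared at homeostasis in peaks per 1000 peaks of the list. Nrg1 had 0.319 ± 0.153 (SD, n = 3) with BMI1 and 0.487 ± 0.184 with H2AK119ub (two-sided exact permutation p = 0.2). Erbb4 had 0.200 ± 0.200 and 0.257 ± 0.223 (exact permutation p = 1), and Nrg3 0.762 ± 0.381 and 0.827 ± 0.168. No member had lists that separated the antibodies, and with 3 libraries on each side the exact p cannot fall below 0.1. The test therefore called 0 of 4222 genes after adjustment and 0 at an unadjusted p under 0.05, which does not show that the antibodies mark these genes alike. Every BMI1 list lay above every H2AK119ub list for 1.1% of genes and the reverse held for 0.0777%, with no member in either set. Either set requires a peak in every list of the higher antibody. The lists held 4072 to 7513 peaks for BMI1 and 2000 to 13487 for H2AK119ub, so these shares do not compare the antibodies.

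The rest of the pathway was read from 4 lists with 62 genes in all, of which 14 had a Homeostasis peak in any list, beside 19.3% of all protein-coding genes. None had a Damage peak, beside 0.283%. Among 7 other ligands of the EGF family, 1 had a peak in 2 or more libraries, for both antibodies (0.415 for BMI1 and 0.579 for H2AK119ub at the shares of their length classes). That gene is Tgfa, encoding transforming growth factor alpha, named after its values were seen, with 1 peak in BMI1 replicates 1 and 2 and in H2AK119ub replicates 2 and 3. Of 7 genes of ligand shedding and processing, 2 had a Homeostasis peak and none was called for either antibody (0.488 and 0.691 at the class shares). Of 10 regulators of the receptors, 2 had a Homeostasis peak, with 0 called for BMI1 (0.964 at the class shares) and 1 for H2AK119ub (1.31).

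Of 38 adaptor and signalling genes, 3 were called for BMI1, with a peak in 2 or more libraries (4.9 at the shares of their length classes) and 4 for H2AK119ub (6.48). Prkca, encoding protein kinase C alpha (chromosome 11, 107933387 to 108343888), had 1, 2 and 2 BMI1 peaks and 2, 3 and 2 H2AK119ub peaks. Sos2, a guanine nucleotide exchange factor that activates Ras (chromosome 12, 69583761 to 69681852), had 2, 1 and 1 BMI1 peaks and 1 peak in each H2AK119ub library. Stat5b, a transcription factor activated downstream of ErbB4 among other receptors (chromosome 11, 100780731 to 100859004), had 1 peak in each of the 6 Homeostasis lists. These 3 of the 38 were named for peaks in all 3 Homeostasis libraries of an antibody, so nothing is read from their recurrence. Each had a peak in all 6 Homeostasis lists, as did 2.55% of protein-coding genes. The share was 13.2% in the longest class, to which Prkca (411 kb) belongs. Over the 62 genes, 4 were called for BMI1 (6.77 at their length class shares) and 6 for H2AK119ub (9.06).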

How the data were processed

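Reads were processed with Bowtie2 and HOMER 4.8 on GRCm38, per the submitters' processing notes. For the peak-calling settings and the role of Input, the sources used here give nothing. The authors deposited 1 peak list per ChIP library, 12 in all. The deposited score is 1 for every peak, so only positions were used. Depth per library is unknown, and the number of libraries limits precision. The 2 Input libraries were not analysed here.

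Groups came from the sample titles. Gene boundaries came from a RefSeq table of GRCm38.p6, and 143 peaks off the assembled chromosomes were left out of gene counts. Tests were two-sided exact permutation tests with Benjamini-Hochberg adjustment over all genes with a peak, at a threshold of 0.05. The treatment test was also run on simulated counts of independent libraries. The changed genes there had more peaks than most genes here, so that run does not show how the test behaves on these lists. All 8 members were named, with the 3 genes nearest Nrg3 and, of the pathway lists, genes with peaks in all 3 Homeostasis libraries of an antibody. Tgfa falls outside that rule and was added after its values were seen. The members and lists were chosen with earlier results of these data known. Alternatives covered the window, the expectation, the site rule, the replicate block and leaving out each library. Filtering on the score was not run, because it is constant. Python 3.11.15, numpy 2.4.6, pandas 2.3.3 and matplotlib 3.10.9 were used.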

Additional observations from a re-analysis of the deposited data

How the results depend on the processing

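Members with a BMI1 peak in 2 or more Homeostasis libraries numbered 3, and 2 to 3 with 1 library left out. For H2AK119ub the number was 5, and it was 4 with the gene body alone. It was 2 with a peak required in all 3 libraries, and it ranged from 2 to 5 with 1 library left out. Members with a Damage peak numbered 2, and 1 to 2 with 1 library left out. The ratio of peaks to expectation over the family for H2AK119ub was 1.39 with the expectation taken from protein-coding windows, and 1.12 to 1.3 with 1 library left out. For BMI1 it was 0.677 to 1.04. Sites in 2 or more libraries numbered 18, and 9 to 18 with 1 library left out. With the gene body alone, the Nrg2 ratio was 0. The treatment test called 488 to 932 genes with 1 library left out, the highest without Homeostasis H2AK119ub replicate 1. With the replicate number as a block (64 arrangements) it called 0 genes (556 at an unadjusted p under 0.05). The smallest exact permutation p was then 0.03125. Adjusted over 4247 genes, that p could give a call only if far more genes than these 556 reached it. The 0 is therefore set by the number of arrangements and says nothing on the treatment difference. The labels give no source for the pairing. The block of the treatment test pairs Homeostasis with Damage lists of the same antibody. For BMI1 the r between their deviations was -0.0406, 0.0318 and -0.00851 for replicates 1, 2 and 3. For H2AK119ub it was -0.00353, 0.00387 and -0.0307. Between unlike numbers, r for these treatment pairs ran from -0.0403 to 0.0456. Among the Homeostasis lists, the r between BMI1 and H2AK119ub deviations was 0.0568, 0.297 and -0.111 for replicates 1, 2 and 3. Between unlike numbers it ran from -0.310 (BMI1 replicate 2, H2AK119ub replicate 1) to 0.217 (BMI1 replicate 3, H2AK119ub replicate 1). In the sample titles, the Homeostasis codes of the antibodies carry unlike numbers at each replicate number, and the Damage codes carry equal ones. Whether equal replicate numbers mark a shared source was not tested. Between antibodies no setting could give a call, since the smallest p was 0.1, and 0.25 with the block. Unknown depth limits every count of 0.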
